A study of Mus musculus with 16 samples.

Results

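Among the 24158 genes of the deposited expression table, 8 were chosen by symbol as regulators of hindbrain and posterior patterning: Cdx1, Cdx2, Cdx4, Nkx1-2, Sp8, Gbx2, Egr2 and Tshz1. Each of them had 1 RefSeq transcript row. The rule is a list of symbols and sets no threshold on a measured value.

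Embryoid bodies (EBs) are floating aggregates that form when embryonic stem cells are grown without LIF, the cytokine that holds them in the undifferentiated state. Here EBs of R1 mouse embryonic stem cells were grown for 4 days, and total RNA was taken before retinoic acid (RA) was added (day 0) and after 4 days with RA (day 4). No EBs kept for the same time without RA were analysed here, so that RA treatment and time in culture cannot be told apart. The procedure was carried out on 2 occasions (biological replicates), and every RNA sample, 4 in all, was split over 4 vials. Vials with mix 1, mix 2 or mix 3 received synthetic mouse transcripts made by in vitro transcription, and those with mix 4 received none. Mixes 1 and 3 were combined with ERCC mix 1, a set of bacterial control RNAs, and mixes 2 and 4 with ERCC mix 2. The vials gave 16 ribosomal RNA-depleted, strand-specific libraries. Vials are splits of 1 RNA and were averaged, so every test compared 2 RNA samples of day 4 with 2 of day 0.

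RA is a signal of the embryonic trunk that is made from vitamin A and acts through nuclear receptors on DNA. In the embryo it meets opposing FGF and Wnt signals from the tailbud, and the balance between them sets the levels of the hindbrain and spinal cord. The Cdx genes encode homeodomain proteins of the caudal family that act in the posterior body and regulate Hox genes. Cdx2 also acts in the trophectoderm, the first layer of the placenta, and Cdx1 and Cdx2 act in the intestine. Nkx1-2 encodes a homeodomain protein of the axial progenitors that build the trunk. Sp8 is a zinc finger factor of the limb bud, the tailbud and the brain. Gbx2 marks and positions the anterior hindbrain, opposite Otx2 in the midbrain. Egr2, also called Krox20, is a zinc finger factor of hindbrain segments and of myelinating Schwann cells. Tshz1 encodes a teashirt family zinc finger protein of the trunk.

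The sequences just upstream of Cdx2, Cdx4 and Nkx1-2 are shown here, because Cdx2 and Nkx1-2 had the largest falls of the 8 genes and Cdx4 was listed at 0 in nearly all day 4 libraries. They are the 250 bases before the annotated start in RefSeq, on the strand of the gene, in GRCm38.p6 (mm10). Cdx2 is on the minus strand (chr5:147307250-147307499), Cdx4 on the plus strand (chrX:103321148-103321397) and Nkx1-2 on the minus strand (chr7:132599638-132599887). Capitals mark the octamer ATGCAAAT in Cdx2 and Cdx4 and the letters GGGCGG, here on the opposite strand, in Nkx1-2.
Cdx2: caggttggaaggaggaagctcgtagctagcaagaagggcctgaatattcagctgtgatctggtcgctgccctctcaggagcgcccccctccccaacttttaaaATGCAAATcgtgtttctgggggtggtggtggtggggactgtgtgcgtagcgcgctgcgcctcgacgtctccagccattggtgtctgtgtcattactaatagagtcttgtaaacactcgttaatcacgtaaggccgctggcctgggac
Cdx4: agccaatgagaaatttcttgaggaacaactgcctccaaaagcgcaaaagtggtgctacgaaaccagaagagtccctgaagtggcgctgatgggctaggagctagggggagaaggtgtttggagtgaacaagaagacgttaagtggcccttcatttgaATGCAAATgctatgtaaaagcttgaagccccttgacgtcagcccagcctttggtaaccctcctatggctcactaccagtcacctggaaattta
Nkx1-2: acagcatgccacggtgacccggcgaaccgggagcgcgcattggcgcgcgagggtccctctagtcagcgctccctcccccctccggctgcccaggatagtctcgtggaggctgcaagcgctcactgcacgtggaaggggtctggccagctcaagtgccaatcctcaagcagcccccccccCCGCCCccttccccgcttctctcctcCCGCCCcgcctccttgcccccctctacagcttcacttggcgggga

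The octamer, the sequence bound by POU domain proteins such as the one encoded by Pou5f1, lay at positions -147 to -140 in Cdx2 and -93 to -86 in Cdx4, where -1 is the base before the start. It was added to the search after the promoters had been read, so its presence in them is a description only. It occurred in 1.6% of the 32851 RefSeq windows of this length, on either strand. Egr2 also had it, at 1 place that lies in 3 overlapping windows of this gene. GGGCGG, the letters bound by Sp family proteins, occurred in 32.7% of all windows and at positions -71 to -66 and -45 to -40 in Nkx1-2. Gbx2, Egr2 and Sp8 also had it. The other motifs searched on both strands were AGGTCA (RA receptor half-site, 14% of windows), the direct repeat of that half-site with a gap of 5 bases (0.00913%), TTTATG (caudal proteins, 10.8%), GCGTGGGCG (Egr proteins, 0.536%) and CTTTGAT (TCF/LEF proteins, 3.21%). AGGTCA is contained in its own direct repeat. Among the 12 windows of the 6 genes, AGGTCA occurred in 1 window of Sp8, and TTTATG in windows of Egr2 and Sp8. The direct repeat, GCGTGGGCG and CTTTGAT had no match there. A match gives only the presence of these letters.

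Expression was read as FPKM, which counts fragments relative to the length of the transcript and the depth of the library. At day 0 the EBs still expressed markers of pluripotent cells. Pou5f1, which encodes the stem cell factor Oct4, had 62.2 FPKM at day 0 and 0.864 FPKM at day 4. In this bulk RNA, fewer cells of a type and less RNA per cell cannot be told apart. The libraries differed in their recovery of GC-rich transcripts, and 2 vials stood apart from the others of the same RNA. Transcripts with at least 55.5% GC in day 0 replicate 1 lay at a median log2 deviation from the mean of all libraries between 0.95 and 1.11. In day 0 replicate 2 the deviation was 0.65 in mix 1 and 0.17 in mix 2, but -1.86 in mix 3 and -1.58 in mix 4. The day 4 libraries lay between -1.27 and -0.56. GC recovery therefore moved with the day as well as with these vials, and the fits were repeated after correction for GC content and for the mix 1 and mix 2 vials alone. True changes that happen to track GC content would be lost in this correction too.

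Of the 8 genes, 7 fell from day 0 to day 4 and 1, Tshz1, rose (limma, Benjamini-Hochberg adjusted p of at most 0.05). Over all 20490 genes tested, 14.5% were called lower and 16% higher at day 4, 30.5% in all. The median log2 fold change was -2.84 over the 8 genes and -0.03 over all genes. In the 16 libraries, the 8 values of day 4 lay below all 8 values of day 0 for the same 7 genes, and above them for Tshz1. Over all genes, 14.6% had every day 4 library below and 19.8% above every day 0 library. With GC corrected FPKM, 6 of the 8 genes were called lower and 1 higher, where 24.4% and 26.8% of all genes were called lower and higher. The gene that lost its call was Gbx2. In the mix 1 and mix 2 vials alone the count was again 7 lower and 1 higher, where 34.7% and 26.6% of all genes were called lower and higher.

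**Figure D1:**
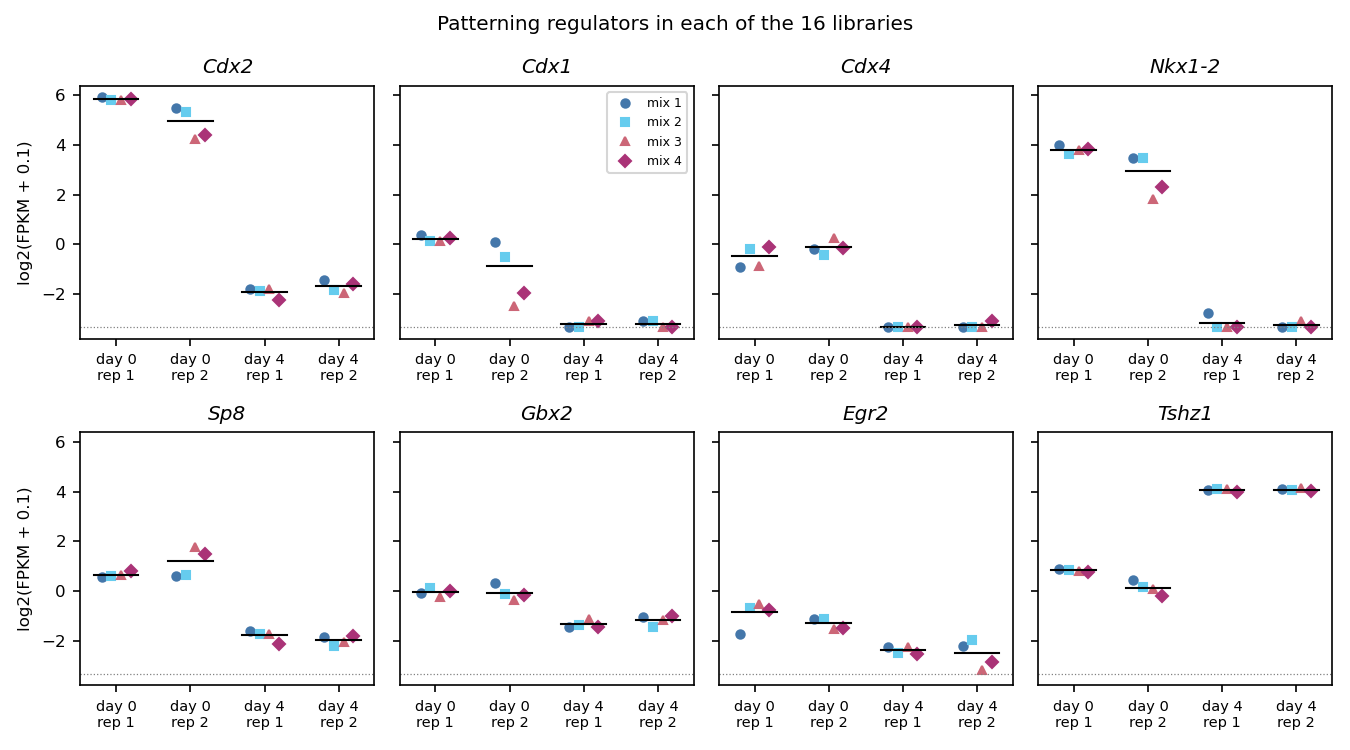
Expression of the 8 patterning regulators, as log2(FPKM + 0.1), in the 16 libraries. Each symbol is 1 vial (mix 1 to mix 4), grouped by RNA sample, black lines are the means of the 4 vials on this scale, and the dotted line is the value of a gene listed at 0. Every day 4 value lies below every day 0 value except in Tshz1, where all lie above, and mix 3 and mix 4 of day 0 replicate 2 lie apart in Cdx2, Cdx1, Nkx1-2 and Sp8.

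At day 0 the levels, in order, were 44.5 FPKM for Cdx2, 10.8 for Nkx1-2, 1.85 for Sp8, 1.34 for Tshz1, 0.864 for Gbx2, 0.761 for Cdx1, 0.729 for Cdx4 and 0.379 for Egr2. The RNA samples of Sp8 and Tshz1 overlapped, as did those of Cdx1 with Tshz1, with Gbx2, with Cdx4 and with Egr2, so that the order within these pairs was not larger than the spread. At day 4 the order was led by Tshz1 with 16.7 FPKM, and the other genes had at most 0.323 FPKM (Gbx2). The 8 genes together summed to 77.8 and 44.6 FPKM in the RNA samples of day 0, mostly Cdx2, and to 17.4 and 17.7 FPKM in those of day 4, mostly Tshz1.

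All caudal genes measured here fell. Cdx2 (NM_007673, chr5:147300900-147307249) was the most abundant of the 8 at day 0 and nearly absent at day 4. Its vials had 60.3, 56.0, 56.8 and 57.3 FPKM in replicate 1 and 44.8, 40.3, 18.9 and 21.4 FPKM in replicate 2 of day 0, in the order of mixes 1 to 4. At day 4 they had 0.186, 0.173, 0.186 and 0.111 FPKM in replicate 1 and 0.272, 0.181, 0.162 and 0.233 FPKM in replicate 2. Even the lowest day 0 vial, mix 3 of replicate 2, was far above every day 4 vial. The mean went from 44.5 ± 18.6 to 0.188 ± 0.0339 FPKM (SD, n = 2 RNA samples). The log2 fold change, on the scale of log2(FPKM + 0.1), was -7.21 with a standard error of 0.38 (95% interval -8.27 to -6.15, limma adjusted p = 0.00456). This offset understates the changes of low genes. With GC correction the log2 fold change of Cdx2 was -6.33 (adjusted p = 0.00121), and in the mix 1 and mix 2 vials alone it was -7.37.

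Cdx1 and Cdx4 were much lower than Cdx2 at day 0. Cdx4 (NM_007674, chrX:103321398-103330224), which like Cdx2 acts in the tailbud, ranged from 0.439 to 1.11 FPKM over the day 0 libraries, with a median of 0.773. At day 4 it was listed at 0 in 7 of 8 libraries, and mix 4 of replicate 2 had 0.019 FPKM. The groups did not overlap, and the log2 fold change was -3.01 with a standard error of 0.19 (limma adjusted p = 0.00518). It was -3.09 with GC correction and -2.92 in the mix 1 and mix 2 vials alone. Cdx1 (NM_009880, chromosome 18) ranged from 0.99 to 1.19 FPKM over the vials of day 0 replicate 1 and from 0.079 to 0.963 FPKM over those of replicate 2. At day 4 it was listed at 0 in 4 libraries and at 0.019 FPKM in each of the other 4. The lowest day 0 values of Cdx1, 0.079 and 0.155 FPKM, were those of mix 3 and mix 4 of replicate 2. Its log2 fold change was -2.87 with a standard error of 0.42 (limma adjusted p = 0.0185). It was -2.33 with GC correction (adjusted p = 0.00146) and -3.23 in the mix 1 and mix 2 vials alone. For genes this low the offset sets the size of the change: with an offset of 1 in place of 0.1, Cdx4 changed by -0.78 and Cdx1 by -0.78 on the log2 scale, and the latter was no longer called (adjusted p = 0.0665). Cdx1 also missed the threshold in the mix 4 vials alone (adjusted p = 0.207), without the mix 1 vials (0.0670) and when genes at 0 in all samples were kept (0.0589).

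Markers of the other tissues of Cdx2 and Cdx1 were examined beside them. Of 8 trophoblast markers, 6 fell and 1 rose. Ascl2, at -1.10, was also called lower with the replicate block and in the mix 1 and mix 2 vials alone, but with GC correction it had -0.48 and was not called (adjusted p = 0.0832, and 0.0651 with the block). With GC correction 6 were again lower, while the median log2 fold change of the list went from -3.53 to -2.41. In the mix 4 vials alone, without the mix 1 vials or without a filter on low values, 4 were lower. Eomes, a T-box factor of the early trophoblast and the primitive streak, had a log2 fold change of -6.47 and Hand1, a factor of giant cells and of mesoderm, one of -7.53 (adjusted p = 0.00456 and 0.00467). The level of Elf5, a trophoblast stem cell factor, was at or near 0 at day 0, listed at 0 in 7 of 8 libraries, and its mean at day 4 was 0.136 FPKM. It was called higher, but not without day 0 replicate 1 (adjusted p = 0.0956) or without day 0 replicate 2 (0.0716). The sum of the 8 trophoblast genes was 894 and 390 FPKM at day 0, against 51.4 and 39.8 FPKM in the day 4 samples, with the keratin gene Krt8 as the most abundant (log2 fold change -3.98, and -2.64 with GC correction). Krt8 and several of these genes are also expressed in other epithelia and in mesoderm. Of 7 intestinal markers, 1 rose (Krt20, with a mean of 0.773 FPKM at day 4) and 1 fell (Lgr5, a Wnt target, -2.48), and the mucin gene Muc2 and Fabp2 were listed at 0 in all day 0 libraries. The sum of the 7 was 5.85 and 6.83 FPKM at day 0, against 2.18 and 2.13 FPKM in the day 4 samples, with Lgr5 as the most abundant. In the mix 1 and mix 2 vials alone, 2 of the 7 were higher and 3 lower, and with GC correction or the replicate block Lgals4 was called higher too. The part of these cells in the levels of Cdx2 and Cdx1 was not tested.

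Nkx1-2 fell to nearly 0. Nkx1-2 (NM_009123, chr7:132596239-132599637) had 15.9, 12.2, 13.8 and 14.1 FPKM in the vials of day 0 replicate 1 and 11.2, 11.0, 3.46 and 4.94 FPKM in those of replicate 2. At day 4 it was listed at 0 in 6 of 8 libraries, with 0.049 FPKM in mix 1 of replicate 1 and 0.019 FPKM in mix 3 of replicate 2. The lowest day 0 vials were again mix 3 and mix 4 of replicate 2, and they remained far above day 4. The log2 fold change of Nkx1-2 was -6.59 with a standard error of 0.39 (95% interval -7.68 to -5.50, limma adjusted p = 0.00471). It was -6.39 with GC correction and -6.82 in the mix 1 and mix 2 vials alone. With an offset of 1 it was -3.50 and with one of 0.01 it was -9.16, with the call kept in both.

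Sp8 (NM_177082, chr12:118846288-118852578) fell from a low level. In the day 0 libraries it ranged from 1.37 to 3.28 FPKM with a median of 1.46, and in the day 4 libraries from 0.114 to 0.225 FPKM with a median of 0.181. The groups were separate, and the highest values, 3.28 and 2.74 FPKM, were those of mix 3 and mix 4 of day 0 replicate 2, which were the lowest in Cdx2, Cdx1 and Nkx1-2. The mean of Sp8 went from 1.85 ± 0.544 to 0.173 ± 0.0251 FPKM (SD, n = 2 RNA samples), a log2 fold change of -2.81 with a standard error of 0.31 (limma adjusted p = 0.0110). It was -2.85 with GC correction and -2.46 in the mix 1 and mix 2 vials alone.

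Across these genes the vials of day 0 replicate 2 thus differed in opposite directions. The mean of mix 3 and mix 4 was lower than that of mix 1 and mix 2 by a log2 ratio of -2.02 for Cdx1, whose transcript has 62.1% GC, -1.38 for Nkx1-2 (52.3% GC) and -1.07 for Cdx2 (57.5% GC). It was higher by 1.00 for Sp8 (49.6% GC) and 0.39 for Cdx4 (46.9% GC). For Egr2 (51.4% GC), Tshz1 (53.4% GC) and Gbx2 (59.4% GC) the ratio was between -0.38 and -0.36. In day 0 replicate 1 the ratios of the 8 genes lay between -0.14 and 0.50, with Egr2 the highest. In replicate 2 the ratio was above 0 in the pair of genes with the lowest GC content and below 0 in the other 6.

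**Figure D2:**
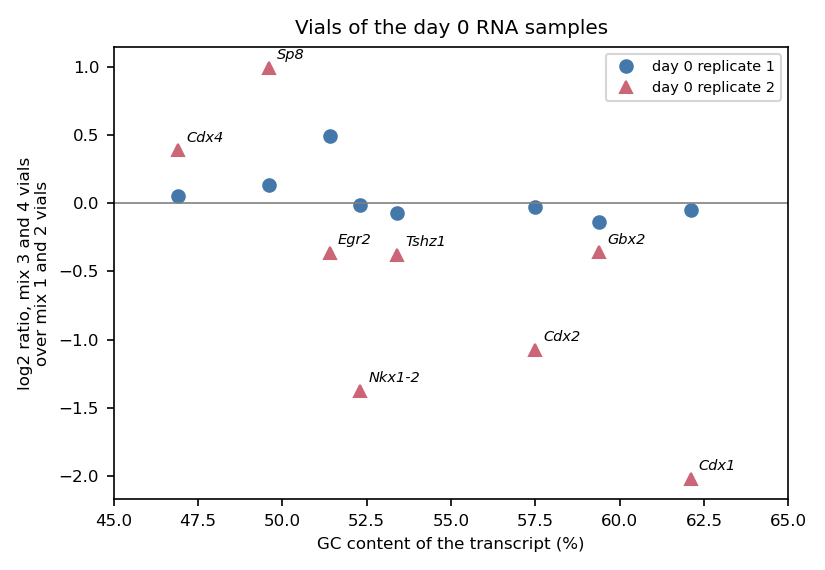
Log2 ratio of the mean FPKM of the mix 3 and mix 4 vials over that of the mix 1 and mix 2 vials (each + 0.1), against the GC content of the transcript in percent, for the 8 genes in the RNA samples of day 0. Circles are replicate 1, which lies between -0.14 and 0.50 (Egr2), and named triangles are replicate 2, which runs from 1.00 for Sp8 to -2.02 for Cdx1.

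The hindbrain genes Gbx2 and Egr2 were low on both days. Gbx2 (NM_010262, chr1:89927962-89931176) had 0.844, 0.991, 0.743 and 0.905 FPKM in the vials of day 0 replicate 1 and 1.14, 0.816, 0.678 and 0.803 FPKM in those of replicate 2. At day 4 it had 0.265, 0.288, 0.363 and 0.269 FPKM in replicate 1 and 0.388, 0.266, 0.344 and 0.402 FPKM in replicate 2. The groups did not overlap, also in the 2 vials that stand apart. The log2 fold change of Gbx2 was -1.19 with a standard error of 0.22 (limma adjusted p = 0.0297). This call was lost with GC correction, where the log2 fold change was -0.23 (adjusted p = 0.839). The corrected levels were 0.382 and 2.20 FPKM in the RNA samples of day 0 and 0.605 and 1.05 FPKM in those of day 4, which overlap. In the mix 1 and mix 2 vials alone, the log2 fold change of Gbx2 was -1.38 (adjusted p = 0.00406) as deposited and 0.47 (adjusted p = 0.329) with GC correction. The call was also lost without day 0 replicate 1 (adjusted p = 0.0636), without the mix 1 vials (0.0666), without the mix 2 vials (0.0535), in the mix 4 vials alone (0.162) and when transcript rows were tested (0.0692).

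Egr2 (NM_010118, chr10:67534469-67542188) had 0.203, 0.517, 0.603 and 0.495 FPKM in day 0 replicate 1 and 0.355, 0.354, 0.246 and 0.261 FPKM in replicate 2. At day 4 it had 0.108, 0.077, 0.112 and 0.074 FPKM in replicate 1 and 0.117, 0.152, 0.01 and 0.037 FPKM in replicate 2. The days did not overlap, although mix 1 of day 0 replicate 1 came near the day 4 values. The mean of Egr2 went from 0.379 ± 0.106 to 0.0859 ± 0.00972 FPKM (SD, n = 2 RNA samples). Its log2 fold change was -1.35 with a standard error of 0.22 (limma adjusted p = 0.0229), and it was -1.24 with GC correction (adjusted p = 0.00287) and -1.11 in the mix 1 and mix 2 vials alone. The call was lost in the mix 4 vials alone (adjusted p = 0.0997), without the mix 1 vials (0.0573) and when genes at 0 in all samples were kept (0.0544).

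Egr2 is also an immediate early gene, one that is switched on within minutes of a stimulus. Of 8 other immediate early genes, 5 fell and none rose. Fos, which encodes a subunit of the AP-1 factor, had a log2 fold change of -1.87, and Junb, another subunit, one of -4.99 (adjusted p = 0.0158 and 0.0320). In day 0 replicate 2, Junb had 6.03 and 2.211 FPKM in mix 1 and mix 2 but 0.462 and 0.503 FPKM in mix 3 and mix 4. Fos had 3.476, 3.214, 3.225 and 3.28 FPKM in these vials. Egr1, with -0.87, did not pass the test (adjusted p = 0.0548). With the replicate block Egr1 and Ier2 were also called lower (adjusted p = 0.0403 and 0.00127), 7 in all, but with GC correction they had -0.46 and -0.48 and were not called, with the block (adjusted p = 0.216 and 0.102) or without it, and the count was 5. As deposited, Ier2 had -1.75. The sum of the 8 was 63.8 and 29.3 FPKM in the day 0 samples, against 10.6 and 10.1 FPKM in those of day 4, with Ier2 as the most abundant. The count of lower genes was 8 in the mix 1 and mix 2 vials alone and 3 without the mix 1 vials or without a filter on low values, and in the mix 4 vials alone it was 0 in limma (3 at an unadjusted p of 0.05). Of 8 markers of Schwann cells and neural crest, 5 fell and none rose. With GC correction 3 were lower and 1, Ngfr, higher. In the mix 1 and mix 2 vials alone 3 were lower, in the mix 4 vials alone 1, and with an offset of 1, without a filter on low values or without day 0 replicate 1 there were 2. Their sum was 173 and 142 FPKM at day 0, against 47.4 and 44.7 FPKM in the day 4 samples, mostly from Pmp22, a myelin protein gene that is also expressed outside the nervous system. The part of either group in the level of Egr2 was not tested.

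Tshz1 was the only one of the 8 genes that rose. Tshz1 (NM_001081300, chromosome 18) had 1.74, 1.71, 1.67 and 1.61 FPKM in the vials of day 0 replicate 1 and 1.26, 1.03, 0.944 and 0.774 FPKM in those of replicate 2. At day 4 it had 16.6, 17.1, 16.9 and 15.9 FPKM in replicate 1 and 17.1, 16.6, 17.6 and 16.1 FPKM in replicate 2. The day 4 libraries lay close together and far above all those of day 0. The mean went from 1.34 ± 0.482 to 16.7 ± 0.178 FPKM (SD, n = 2 RNA samples), a log2 fold change of 3.58 with a standard error of 0.31 (95% interval 2.73 to 4.44, limma adjusted p = 0.00738). It was 4.04 with GC correction and 3.49 in the mix 1 and mix 2 vials alone. The other teashirt genes rose as well. Tshz2 had 0.0575 FPKM at day 0 and 11.2 FPKM at day 4, a log2 fold change of 6.17, and Tshz3 had 0.132 and 4.25 FPKM, a log2 fold change of 4.23 (adjusted p = 0.00456 and 0.00465).

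**Figure D3:**
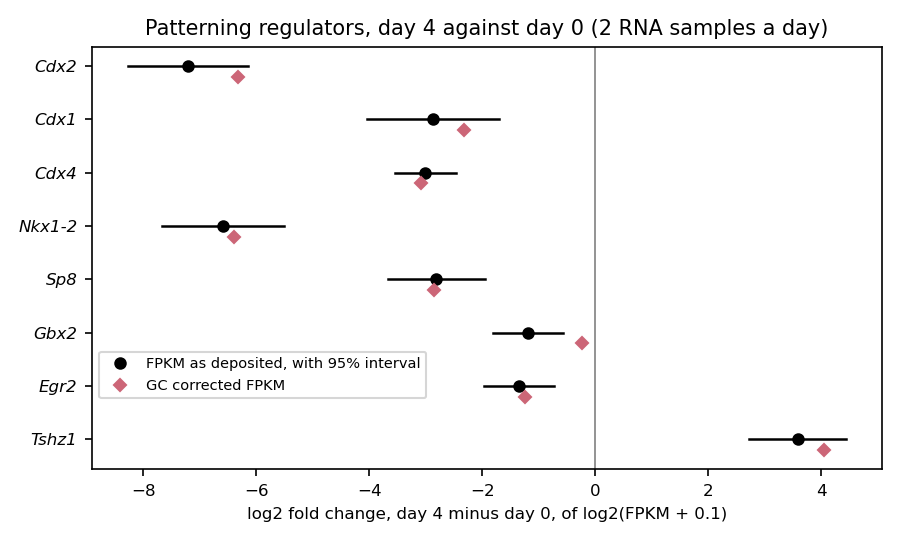
Log2 fold change from day 0 to day 4 on the scale of log2(FPKM + 0.1), for 2 RNA samples a day. Black points with bars are the values of the deposited FPKM with their 95% intervals from limma, and diamonds are the values after GC correction, which differ most from the deposited ones for Gbx2, at -0.23 against -1.19.

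The calls were lost when either day 4 replicate was left out. Without day 4 replicate 1 or without day 4 replicate 2, no gene of the table passed the adjusted threshold in limma. At an unadjusted p of 0.05, 6 and 5 of the 8 genes were then lower and 1 higher, where 8.08% and 7.41% of all genes were lower and 16% and 15.6% higher. Without day 0 replicate 1 the calls other than that of Gbx2 were kept, where 10.2% of all genes were called lower and 11.3% higher. Without day 0 replicate 2 all 8 were kept, where the shares were 27.1% and 17.9%. With the replicate number as a block, all 8 calls were kept, while the number of genes called lower over the whole table went from 2971 to 5969 (29.1%) and of those called higher from 3280 to 4617 (22.5%).

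The other paralogs of the 8 genes were mixed. Of the 11 listed, 10 could be tested, since Nkx1-1 was listed at 0 in all libraries. Tshz2 and Tshz3 rose, and Sp5, Sp6, Egr3 and Egr4 fell. Sp5, a Wnt target of the tailbud, had a log2 fold change of -2.87 and Sp6 of -3.64 (adjusted p = 0.0104 and 0.00780). With GC correction the log2 fold change of Sp5 was -1.98 (adjusted p = 0.0963) and that of Egr4 was -0.86 (adjusted p = 0.0894), so that neither was called. As deposited, Egr4 had -0.98 (limma adjusted p = 0.0264). Gbx1, Sp7, Sp9 and Egr1 did not pass the test, and the call of Egr1 with the replicate block was absent with GC correction, as given above. In the mix 4 vials alone none of the 9 paralogs tested was called lower in limma (3 at an unadjusted p of 0.05), and with GC correction 2 of the 10 were.

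Most genes of the tailbud, where the Cdx genes, Nkx1-2 and Sp8 act, fell. Of 17 genes of the tailbud and its axial progenitors, 15 were lower at day 4 and none higher, with a median log2 fold change of -2.92. T (brachyury), the T-box factor of the primitive streak and tailbud, had 67.0 FPKM at day 0 and 0.019 FPKM at day 4, a log2 fold change of -9.13. Fgf8, the growth factor that keeps progenitors immature, had 9.42 and 0.0035 FPKM, and the homeobox gene Evx1 had 12.9 and 0.142 FPKM. Msgn1, a factor of presomitic mesoderm, ranged from 0.108 to 12.4 FPKM at day 0 and was listed at 0 in all day 4 libraries. Its lowest day 0 values were those of mix 3 and mix 4 of replicate 2. Wnt3a and Wnt8a, tailbud ligands, had log2 fold changes of -3.55 and -3.38. Lef1 and Axin2, a mediator and a target of Wnt signalling, had -2.67 and -2.93. Rspo3, an enhancer of Wnt signalling, did not pass the test, with 47.4 FPKM at day 0 and 32.6 FPKM at day 4, nor did Hes7. With GC correction 15 of the 17 were again lower, with Rspo3 in and Wnt5b (adjusted p = 0.0562) out, and in the mix 1 and mix 2 vials alone the count was also 15. It was 6 in the mix 4 vials alone and 11 without the mix 1 vials or without a filter on low values. With a filter of at least 1 FPKM, 10 of the 11 genes tested were lower.

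Most segmentation genes of the hindbrain, where Egr2 and Gbx2 act, rose. Of 12 genes, 7 were higher and 1 lower, with a median log2 fold change of 2.02. Hoxa2 rose from 0.0658 to 20.4 FPKM and Rarb, an RA receptor gene, from 0.195 to 107 FPKM, with log2 fold changes of 6.95 and 8.50. Hoxa3, Hoxb2 and Hoxb3 rose by 4.22, 2.55 and 3.90 on the log2 scale. Fgf3, a growth factor of the hindbrain and the tailbud, fell from 30.4 to 0.0131 FPKM. Hoxb1, which marks a segment between those of Egr2, had 0.397 FPKM at day 0 and 0.403 FPKM at day 4, with a log2 fold change of 0.02 (95% interval -0.59 to 0.63). Irx3 and Epha4 did not pass the test either. In the mix 1 and mix 2 vials alone, with GC correction and with the replicate block, Epha4 was called higher, so that 8 of the 12 were higher and 1 lower. Only 6 of the 12 were higher with an offset of 1, and when the log2 values of the vials were averaged. The count was also 6 in the mix 4 vials alone, without the mix 1 vials and without the mix 2 vials.

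Around the midbrain-hindbrain boundary, which Gbx2 positions, 4 of 12 genes were lower and none higher. Otx2, the anterior counterpart of Gbx2, had 1.16 FPKM at day 0 and 0.00475 FPKM at day 4. Fgf8 and Fgf17, signals of the boundary that were also counted in the tailbud, and Spry2, an inhibitor of FGF signalling, were the others that fell. En1, a homeobox gene of the boundary, had 0.236 FPKM at day 0 and 0.26 FPKM at day 4 and did not pass the test. Pax5 and Wnt1 were listed at 0 in all day 0 libraries, and Pax2 had a mean of 0.00688 FPKM at day 0 and 0.00238 FPKM at day 4. With GC correction, Fgf18, Spry1 and Wnt1 were called higher, and with the replicate block Spry1 was. At day 4 Wnt1 had a mean of only 0.00825 FPKM and was listed at 0 in 6 of 8 libraries. In the mix 4 vials alone 1 of the 11 genes tested was lower, and with a filter of at least 1 FPKM 2 of the 3 tested were.

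Most genes that respond to RA or handle it rose. Of 8 genes, 6 were higher and 1 lower. Dhrs3, an enzyme that limits RA production, went from 0.788 to 91.3 FPKM, and Cyp26b1, which degrades RA, rose by 5.59 on the log2 scale. Cyp26a1, the RA-degrading enzyme of the tailbud, fell from 50.7 to 8.88 FPKM, unlike Cyp26b1. Crabp2, an RA carrier, did not pass the test (0.84, adjusted p = 0.0853). With the replicate number as a block Crabp2 was called higher (adjusted p = 0.0111). It was also called higher with GC correction, at 0.99 (adjusted p = 0.00653), and in the mix 1 and mix 2 vials alone, at 0.65 (adjusted p = 0.0179). In each of these settings 7 of the 8 were higher. In the mix 4 vials alone 5 of the 8 were, and with a filter of at least 1 FPKM 5 of the 7 tested.

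**Figure D4:**
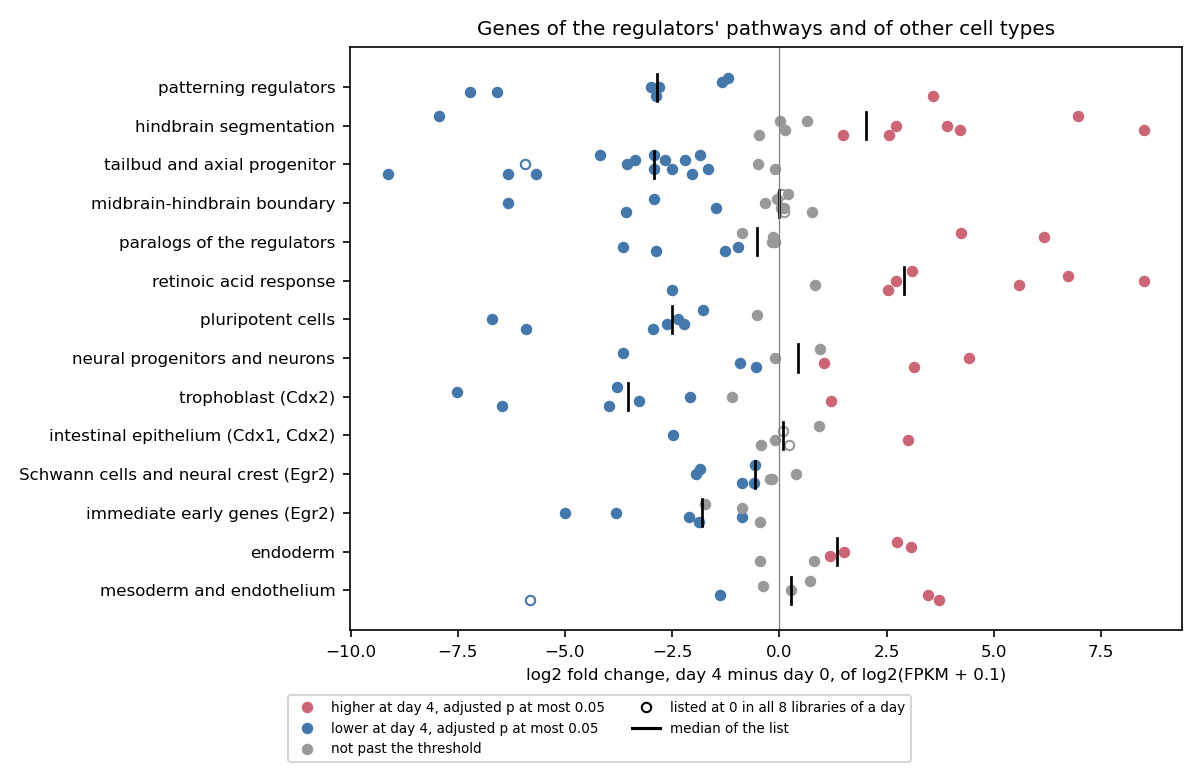
Log2 fold change from day 0 to day 4, on the scale of log2(FPKM + 0.1), for the 8 patterning regulators, their pathway lists and marker lists of other cell types. Each point is a gene, coloured by its limma call, open points were listed at 0 in all 8 libraries of a day, and black lines are the medians of the lists, which run from -3.53 for trophoblast markers to 2.91 for RA response genes.

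The 4 of the 8 genes with a mean of at least 1 FPKM on a day were compared with 12144 other genes by Pearson's r of log2(FPKM + 0.1) over the 16 libraries, which come from 4 RNA samples and share their GC recovery. The genes most like Tshz1 were Fzd1 and Gpt2 (r = 0.999 for both). For Nkx1-2 they were Atp10a (0.999) and Bcat1 (0.998), and for Sp8 they were Gm20362 and Lyst (0.994 for both). For Cdx2 they were Sprr2a1 and Sprr2a2 (0.999 for both), near-identical copies that share reads and whose own levels are uncertain. These values describe the libraries, with no test, and the points fall into the 2 days.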

How the data were processed

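The authors mapped the reads with Bowtie2 (2.1.0) to RefSeq transcripts of mm10 and the spike-ins, estimated abundances with RSEM (1.2.18), and deposited FPKM of each transcript, scaled by a TMM factor per library. The paper gives the read totals of the libraries, which are not repeated here. The counts of reads behind the single FPKM values were not used, so no counting interval is given. Values are whole steps of 0.01 FPKM times that factor (100% of values within 0.0011), and FPKM sums ranged from 411090 to 622888 per library. All 16 columns were assigned to samples by title, and the replicate of each vial was taken from the sample table of the paper (0 columns had no sample).

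Of 33750 rows, 48 spike-in rows and the row of 1700047L14Rik, a spike-in of erroneous concentration, were left out, and 99.2% of the 33701 RefSeq rows matched a gene symbol. Transcripts of 1 gene were added up, and the sums were averaged over the 4 vials of an RNA sample. Genes at 0 in all 4 RNA samples were left out, and log2(FPKM + 0.1) was compared between the days with lmFit and eBayes with a trend in limma 3.58.1 (R 4.3.3) and without a replicate term. Benjamini-Hochberg adjustment covered all 20490 genes tested. Python 3.11.15, numpy 2.4.6, pandas 2.3.3 and matplotlib 3.10.9 were used for the rest. The fit was tested on simulated data, and the GC correction was not. To correct for GC content, rows were sorted into 20 bins of GC content, and each value was divided by the median deviation of its library in that bin (13893 rows). 97.4% of the RefSeq rows had a GC content.

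The paper states that the procedure was repeated to give 2 biological replicates. That the replicate numbers pair the days was assumed here and is not stated there. Across genes, which are not independent, the differences between replicates correlated between the days with r = 0.769 over 11583 genes. After GC correction r was 0.543. Alternatives were other offsets, filters, scalings, variance models, sets of vials, a replicate block, GC correction and leaving out each RNA sample. The GC correction combined with the block or with the mix 1 and mix 2 vials, and the octamer motif, were chosen after seeing the data. The 8 genes, the pathway lists and the marker lists were chosen with earlier results of these data known. Some genes of these lists are counted in them but not reported here by name. The genes named are the 8, the genes of these lists and, for each of the 8 with a mean of at least 1 FPKM on a day, the 2 genes most correlated with it. Promoters come from the RefSeq annotation of GRCm38.p6 and were found for 6 of the 8 genes.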

Additional observations from a re-analysis of the deposited data

Results flagged for a closer look

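In each of the 8 genes, the 8 libraries of each day were examined for a highest or lowest value far from the rest (Dixon's test), in 16 groups. Chance singles out about 1 in 20 groups of independent values, a rate that does not hold here, since the 8 libraries are vials of 2 RNA samples and many values are tied at 0. In 2 groups a library was singled out, both at day 4 in genes listed at 0 in most libraries, where any value above 0 stands apart from the ties. They are given as values only. The highest day 4 value of Cdx4, 0.019 FPKM in mix 4 of replicate 2, was the only one above 0. The highest day 4 value of Nkx1-2, 0.049 FPKM in mix 1 of replicate 1, lay above the 0.019 FPKM of mix 3 of replicate 2 and the 0 FPKM of the other libraries. Both are a few of the smallest steps of the table and far below every day 0 value.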

How the results depend on the processing

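In 24 alternative settings, the direction of Cdx1, Cdx2, Cdx4, Nkx1-2, Sp8, Egr2 and Tshz1 was the same in every setting that gave a value, and Gbx2 reversed in 1, to a log2 fold change of 0.47 with GC correction in the mix 1 and mix 2 vials. The cause was not tested. The replicate block, which takes the replicate numbers as pairs of the days, kept all 8 calls and raised the genes called lower from 2971 to 5969.

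The counts that moved by more than 1.5 times are given here as genes higher (3280 in the values reported), genes lower (2971), genes lower of the 8 (7), pathway genes higher (13) or lower (22) and cell type genes higher (11) or lower (29). A filter of at least 1 FPKM removes Cdx1, Cdx4, Egr2 and Gbx2, and also genes of the pathway and cell type lists. It left 11583 genes to test, of which 2093 were higher, and the number lower stayed within 1.5 times of 2971. Of the 8, 3 of the 4 genes left were lower, and 14 pathway genes were lower and 5 cell type genes higher. Without a filter, 1644 genes were lower, and 6 cell type genes were higher and 17 lower. GC correction gave 5488 genes higher and 4995 lower, with the replicate block 5938 and 5557 and 18 cell type genes higher, and in the mix 1 and mix 2 vials 6581 and 5990 and 18 cell type genes higher. Those vials without correction gave 5237 genes higher and 6830 lower. The mix 4 vials alone gave 836 genes higher, 283 lower, 4 of the 8 lower, 8 pathway genes lower, and 6 cell type genes higher and 7 lower. Without mix 1 vials, 2073 genes were higher, 1210 lower, 4 of the 8 lower and 18 cell type genes lower. Genes lower numbered 1851 without mix 2 vials, 5184 without mix 3 vials and 4474 without mix 4 vials.

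Leaving out each RNA sample in turn gave 0 to 3674 genes higher, 0 to 5558 lower, 0 to 1 of the 8 higher, 0 to 7 of the 8 lower, 0 to 15 pathway genes higher, 0 to 23 lower, 0 to 7 cell type genes higher and 0 to 29 lower. Every count of 0 was from limma without day 4 replicate 1 or replicate 2, where 3276 and 3198 genes were higher and 1656 and 1518 lower at an unadjusted p of 0.05, and the smallest adjusted p was 0.0656 and 0.0636. A lone sample is assumed to vary like the other day. Scaling moved the median log2 fold change of all genes from -0.03 to at most 0.09, and the 8 genes kept their calls. Without read counts, no counting error is given for values near 0 FPKM.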

Other observations

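The marker lists of further cell types were tested in the same limma comparison. Of 8 pluripotency genes, 7 were lower at day 4 and none higher, and only Klf4 did not pass the test. The count was 1 in the mix 4 vials alone, 4 without a filter on low values and 5 without the mix 1 vials. They summed to 199 and 140 FPKM in the RNA samples of day 0 and 12.2 and 7.71 FPKM in those of day 4. Of 8 genes of neural progenitors and neurons, 3 were higher and 3 lower. With GC correction, 4 were higher and 2 lower, with Map2 in and Sox1 out, and Map2 was also called higher with the replicate block. In the mix 4 vials alone and without the mix 1 vials, 2 were higher and none lower in limma (3 lower at an unadjusted p of 0.05 in both). Dcx and Ncam1, genes of young neurons and of neural adhesion, rose by 4.42 and 3.13 on the log2 scale, and Tubb3, a neuronal tubulin, had a log2 fold change of -3.66 (adjusted p = 0.0212). Of 6 endoderm genes, 4 were higher and none lower, with Gata6, a factor of primitive endoderm, as the most abundant and a log2 fold change of 3.08. Foxa2 rose by 1.18 on the log2 scale, and with GC correction it had 1.75 and was not called (adjusted p = 0.0923), while Ttr was, as it was with the replicate block. In the mix 4 vials alone and without a filter on low values 1 of the 6 was higher, and without the mix 1 vials, without day 0 replicate 1 or without day 0 replicate 2 there were 2. Together the endoderm genes had 16.5 and 14.9 FPKM at day 0, against 76.9 and 76.7 FPKM in the day 4 samples. Of 7 genes of mesoderm and endothelium, 2 were higher (Tbx5 with 3.71 and Meox1 with 3.46) and 2 lower (Kdr with -1.38, and Mesp1, listed at 0 in all day 4 libraries). In the mix 4 vials alone 1 of them was higher and none lower in limma (2 lower at an unadjusted p of 0.05).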
